A study of Rattus norvegicus with 6 samples.

Results

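The 8 genes described here, Slc17a6 apart, mark excitatory pyramidal neurons of the hippocampus or one of the fields in which those neurons lie. Slc17a6 was listed with them and is typical of thalamic and other subcortical excitatory neurons. All 8 were chosen by name, and every non-control probe whose accession carries 1 of the 8 current symbols was taken, whatever its value. This gave 10 probes, 1 each for Neurod6, Slc17a7, Slc17a6, Wfs1, Pcp4 and Rgs14 and 2 each for Fibcd1 and Bok, of 30367 probes on the array and of 15154 genes with a current symbol. RNA came from the hippocampus of male Wistar rats whose testes had been removed (orchidectomized, n = 3) or that had a sham operation (n = 3). Surgery was done at 2 months of age and tissue was taken 2 weeks later. Both groups were of the same strain and sex, and the hippocampus was taken without separating its fields, as far as the labels say, so that fields and cell types share 1 RNA sample. Each sample was hybridised to its own 1-colour Agilent array, and values are log2 signals minus the 75th percentile of the array, so that 1 unit is a doubling. No probe's level is compared with that of another probe, because probes differ in how well they bind.

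Pyramidal neurons are the glutamate-releasing principal cells of the cornu ammonis, the curved cell layer of the hippocampus whose fields CA1, CA2 and CA3 differ in inputs, plasticity and gene use. Glutamate is loaded into their synaptic vesicles by a vesicular transporter, and in forebrain cortex and hippocampus this is mostly the product of Slc17a7. Neurod6 encodes a basic helix-loop-helix transcription factor of maturing and adult excitatory neurons, a protein family that binds the E-box, the hexamer CANNTG. Androgen receptor is known to be abundant in CA1 pyramidal neurons of the male rat, and removing the testes removes the main source of its ligand.

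The start sites of 7 of the 8 genes had a promoter window in RefSeq (build GRCr8), from 250 bases before to 50 bases after the start, and Bok had no entry. E-boxes, which read as CANNTG on either strand, were present in 6 of the 7 windows, and 72.1% of all 33469 promoter windows of the same length held one. Neurod6 and Rgs14 held the most among the members, 4 and 6, and are printed for that reason. The windows of Slc17a7 and Slc17a6 are printed as the pair of glutamate transporter genes, which lie on the same chromosome. Each is read 5′ to 3′ along the gene, with the E-boxes in capitals.
Neurod6, chr4:86180106-86180405, minus strand: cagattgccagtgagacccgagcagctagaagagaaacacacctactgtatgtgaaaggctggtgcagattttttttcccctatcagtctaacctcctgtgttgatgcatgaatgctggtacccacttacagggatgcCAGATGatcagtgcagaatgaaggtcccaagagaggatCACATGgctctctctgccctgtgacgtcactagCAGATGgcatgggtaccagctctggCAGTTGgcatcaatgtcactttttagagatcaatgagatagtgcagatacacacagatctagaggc
Rgs14, chr17:9268184-9268483, minus strand: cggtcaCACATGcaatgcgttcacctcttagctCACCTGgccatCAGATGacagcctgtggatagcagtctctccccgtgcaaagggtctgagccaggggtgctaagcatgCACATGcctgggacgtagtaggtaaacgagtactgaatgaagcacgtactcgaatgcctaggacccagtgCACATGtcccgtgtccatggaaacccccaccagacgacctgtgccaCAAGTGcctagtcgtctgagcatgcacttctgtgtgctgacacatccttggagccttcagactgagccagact
Slc17a7, chr1:104785955-104786254, plus strand: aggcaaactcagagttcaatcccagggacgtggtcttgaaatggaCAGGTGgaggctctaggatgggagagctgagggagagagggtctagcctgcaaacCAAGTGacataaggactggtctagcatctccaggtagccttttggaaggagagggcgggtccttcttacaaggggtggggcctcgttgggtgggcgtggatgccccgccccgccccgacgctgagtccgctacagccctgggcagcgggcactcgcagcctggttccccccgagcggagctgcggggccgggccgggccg
Slc17a6, chr1:110348197-110348496, plus strand: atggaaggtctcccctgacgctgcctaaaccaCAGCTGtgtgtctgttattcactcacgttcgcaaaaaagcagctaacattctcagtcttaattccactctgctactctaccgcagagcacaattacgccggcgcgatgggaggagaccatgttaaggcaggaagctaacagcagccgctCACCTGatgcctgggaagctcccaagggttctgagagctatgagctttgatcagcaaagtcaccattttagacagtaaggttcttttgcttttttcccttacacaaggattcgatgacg
Counted from the start site, the E-boxes of Neurod6 began at -112, -74, -41 and -16, and those at -112 and -41 had the letters CAGATG. That form, which overlaps the general motif because it is 1 of its spellings, was present in 2 of the 7 windows, Neurod6 and Rgs14, and in 16.6% of all windows. Rgs14 had E-boxes at -244, -217, -206, -139, -69 and -23. The transporter pair differed in base composition, with 64.7% G or C in Slc17a7 and 49.0% in Slc17a6. TGTTCT, the half-site letters bound by androgen and glucocorticoid receptors, searched on both strands, was in 1 of the 7 windows, that of Pcp4, and in 20.7% of all windows. TATAAA on either strand was in none of the 7 windows and in 14.2% of all windows. GGGCGG, the GC box, was on either strand in 3 of the 7, Slc17a7, Wfs1 and Fibcd1, and in 33.1% of all windows. A match of letters says nothing about binding in these samples.

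Signal was well above background for all 10 probes in every orchidectomized sample, in sham 1 and in sham 3, and for 9 of 10 on the array labelled sham 2, the exception being Slc17a7. The array labelled sham 2 had another profile: its values correlated with those of the other 5 arrays at 0.802 to 0.811 across probes, against 0.988 to 0.996 among those 5. On it, genes of the choroid plexus, the epithelium that secretes cerebrospinal fluid, were high, and all comparisons are given with and without it. Between 23785 and 26173 probes were well above background per array, and precision is limited by how few arrays there are. In whole tissue, fewer cells of a type and less RNA per cell cannot be told apart.

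Without the array labelled sham 2, no member gene differed between orchidectomized and sham rats beyond the test's threshold. In 9 of 10 probes the orchidectomized mean was nonetheless the lower, by between 0.08 and 0.49 log2 units, and the 1 exception was the brighter Fibcd1 probe, which was saturated on sham 3. The limma test called 0 of 10 member probes at an adjusted p under 0.05, beside 0 of 25208 probes tested (0%), with 682 probes, 2.71%, at an unadjusted p under 0.05. Adjusted p was 0.988 for each of the 10. The median difference, orchidectomized minus sham, was -0.22 over the 10 probes and -0.02 over all tested probes, of which 55.1% were lower. Groups did not overlap, with every orchidectomized array below both sham arrays, in 4 of the 10 member probes, those of Neurod6, Slc17a6, Pcp4 and 1 of Bok, and in 10% of all tested probes.

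**Figure D1:**
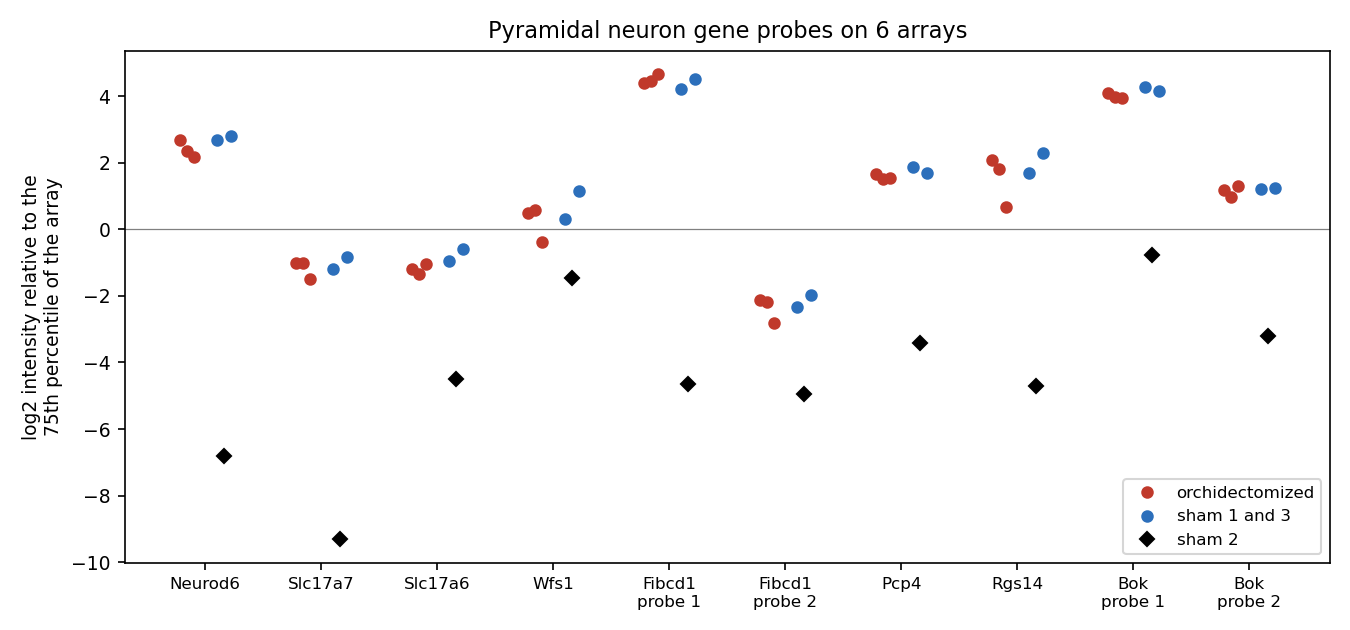
Level of each of the 10 probes on each array, in log2 signal minus the array's 75th percentile, with the 3 orchidectomized arrays (red) left of sham 1 and sham 3 (blue) and the array labelled sham 2 drawn as a black diamond; probe 1 of Fibcd1 and of Bok is the brighter. The diamond lies below the other 5 points for all 10 probes, for Slc17a7 at a level not well above background, and the 5 coloured points of any probe lie within 1.62 log2 units of each other.

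Neurod6 was measured at 2.67, 2.34 and 2.18 in orchidectomized 1 to 3 and at 2.68, -6.81 and 2.78 in sham 1 to 3. Apart from sham 2 the sham arrays lay just above the orchidectomized ones, sham 1 by the second decimal place only over orchidectomized 1. The mean was 2.40 ± 0.25 in orchidectomized rats (SD, n = 3) and 2.73 ± 0.07 in sham rats without sham 2 (SD, n = 2). The difference was -0.34 log2 units (standard error 0.18, 95% interval -0.78 to 0.11, limma adjusted p = 0.988), a level 0.791-fold that of sham rats with an interval of 0.581 to 1.08.

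The 2 vesicular glutamate transporters were both lower in orchidectomized rats in the mean and neither was called. Slc17a7, which encodes VGLUT1, the main form of hippocampal pyramidal cells, stood at -1.03, -1.01 and -1.49 in orchidectomized 1 to 3 and at -1.21, -9.32 and -0.82 in sham 1 to 3. The groups overlapped, and the difference without sham 2 was -0.16 (standard error 0.22, 95% interval -0.70 to 0.37), and -0.0042 with orchidectomized 3 also left out. Slc17a6, which encodes VGLUT2, the form of most thalamic and other subcortical excitatory neurons, was -1.19, -1.34 and -1.06 in orchidectomized 1 to 3 and -0.96, -4.49 and -0.61 in sham 1 to 3. Apart from sham 2, both sham arrays exceeded all 3 orchidectomized arrays. The difference without sham 2 was -0.41 (standard error 0.17, 95% interval -0.83 to 0.01), with the smallest unadjusted limma p of the 10 probes, 0.0555, and an adjusted p of 0.988.

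Slc17a6 is the 1 member whose probe was spotted 10 times on each array, which gives a measure of reading error. The SD over its 10 spots was 0.037, 0.036 and 0.019 in orchidectomized 1 to 3 and 0.050, 0.185 and 0.027 in sham 1 to 3. The spots of sham 1 ran from -1.02 to -0.87 and those of sham 3 from -0.66 to -0.57, while the spots of the 3 orchidectomized arrays ran from -1.38 to -1.02. The spots of sham 3 were thus clear of those of every orchidectomized array, while those of sham 1 and orchidectomized 3 met at -1.02. Spots of 1 array share 1 RNA sample and are not replicates.

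**Figure D2:**
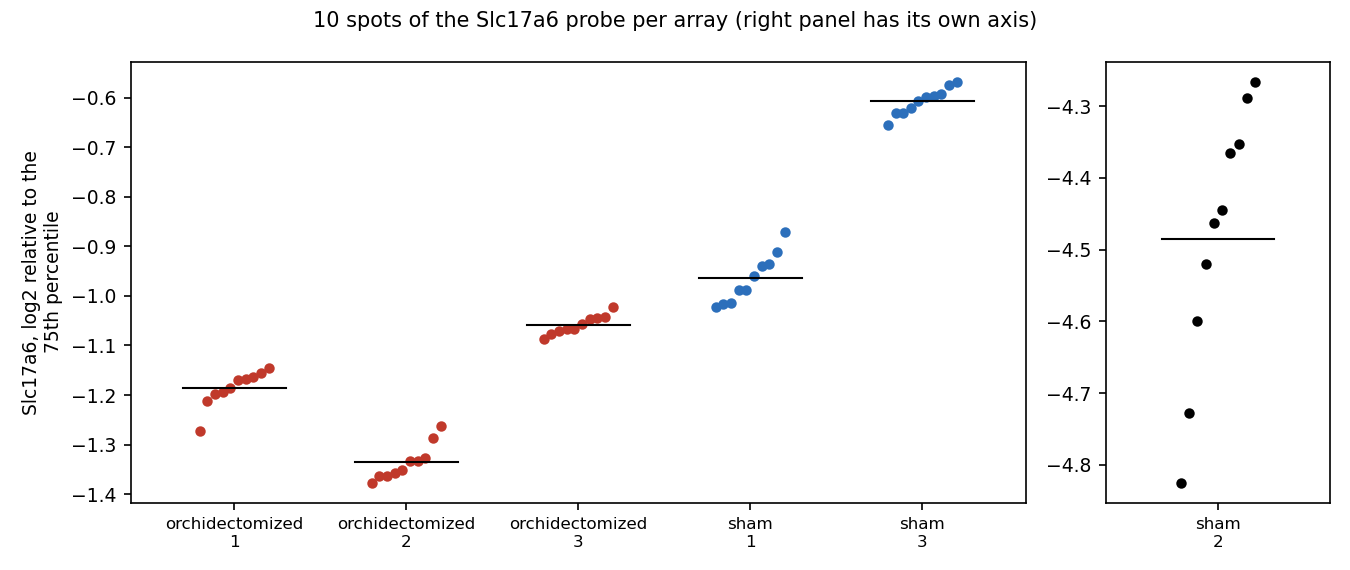
Each of the 10 spots of the Slc17a6 probe on each array, in log2 signal minus the array's 75th percentile, orchidectomized arrays left of sham arrays, in order of value within an array, with the mean as a line; the array labelled sham 2 has an axis of its own at the right. Spots of 1 array lie close together, with SDs of 0.019 to 0.185, and the array labelled sham 2 stands lowest, at -4.82 to -4.27.

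Because Slc17a6 is typical of tissue next to the hippocampus, the markers of thalamus and habenula were read beside it. Of 10 such genes with a probe 9 were detected, with a mean level of -3.29, -3.49 and -3.65 in orchidectomized 1 to 3 and of -2.74, -3.85 and -3.85 in sham 1 to 3. Their highest array was sham 1, and that of Slc17a6 was sham 3. Prkcd, a protein kinase C isoform of thalamic relay neurons, was -1.38, -1.68 and -1.29 in orchidectomized 1 to 3 and 0.14, 1.34 and -1.71 in sham 1 to 3. Zic1, a zinc finger factor of medial habenula and other midline cells, was -4.05, -3.96 and -4.44 in orchidectomized 1 to 3 and -2.25, -0.23 and -4.31 in sham 1 to 3. Both were higher on sham 1 and on the array labelled sham 2 than on the other 4 arrays. They were the 2 of the 9 genes that lay more than 1 unit above the median of the other 5 arrays on sham 2, and 4 of the 9, among them Lef1 at -4.61, lay more than 1 unit below it. The mean of 4 subiculum markers was -1.49, -1.40 and -1.41 in orchidectomized 1 to 3 and -1.83, -4.08 and -0.94 in sham 1 to 3. Like Slc17a6 it was highest on sham 3, but unlike Slc17a6 it was lowest, sham 2 apart, on sham 1. By gene, again without sham 2, Nts and Etv1 were highest on sham 3, Fn1 on orchidectomized 2 and Tpbg on orchidectomized 3. The part of either list in the Slc17a6 difference was not tested.

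The members known from CA1 were Wfs1 and Fibcd1. Wfs1 encodes wolframin, a protein of the endoplasmic reticulum membrane that marks CA1 pyramidal cells in rodents, and its values were 0.49, 0.58 and -0.37 in orchidectomized 1 to 3 and 0.29, -1.45 and 1.15 in sham 1 to 3. With sham 2 left out, orchidectomized 3 and sham 3 lay at the ends and the other arrays between them, so the groups overlapped. The difference without sham 2 was -0.49 (standard error 0.38, 95% interval -1.44 to 0.46), and it was -0.19 with orchidectomized 3 also left out. Fibcd1 encodes a membrane receptor for acetylated compounds such as chitin and is known in mouse as a marker of dorsal CA1. Its brighter probe gave 4.39, 4.44 and 4.66 in orchidectomized 1 to 3 and 4.21, -4.66 and 4.50 in sham 1 to 3, and was saturated on sham 3. Its other probe gave -2.12, -2.19 and -2.80 in orchidectomized 1 to 3 and -2.33, -4.95 and -1.97 in sham 1 to 3. Orchidectomized 3 was the highest array for the first probe and, sham 2 apart, the lowest for the other, and the differences without sham 2 had opposite signs, 0.14 (standard error 0.16) and -0.22 (standard error 0.25). Neither interval excludes 0. Because a saturated spot can only be read too low, the sham 3 level of the brighter probe is a lower bound, and the sign of its difference is not settled.

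The 2 members typical of CA2, a small field between CA3 and CA1, were Pcp4 and Rgs14. Pcp4 encodes a small calmodulin-binding protein, also found in granule cells of the dentate gyrus, and was among the steadiest members. It measured 1.65, 1.50 and 1.55 in orchidectomized 1 to 3 and 1.86, -3.41 and 1.69 in sham 1 to 3. The groups did not overlap once sham 2 was left out, and the difference was -0.21 (standard error 0.13, 95% interval -0.54 to 0.12). Rgs14 encodes a regulator of G protein signalling that limits plasticity in CA2 neurons of the mouse, and it measured 2.08, 1.81 and 0.67 in orchidectomized 1 to 3 and 1.68, -4.71 and 2.29 in sham 1 to 3. Orchidectomized 3 lay more than 1 unit below orchidectomized 2, and sham 1 lay inside the orchidectomized range. The difference was -0.47 (standard error 0.45, 95% interval -1.58 to 0.65), and it was -0.042 with orchidectomized 3 also left out.

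Bok, which encodes a pro-apoptotic member of the BCL-2 family and marks CA3 in mouse, had a pair of probes. The brighter gave 4.08, 3.97 and 3.94 in orchidectomized 1 to 3 and 4.28, -0.78 and 4.14 in sham 1 to 3. The other gave 1.18, 0.98 and 1.30 in orchidectomized 1 to 3 and 1.22, -3.22 and 1.24 in sham 1 to 3. The groups were apart, without sham 2, for the brighter probe, at -0.21 (standard error 0.13, 95% interval -0.54 to 0.11), and overlapped for the other, at -0.08 (standard error 0.15, 95% interval -0.44 to 0.29).

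**Figure D3:**
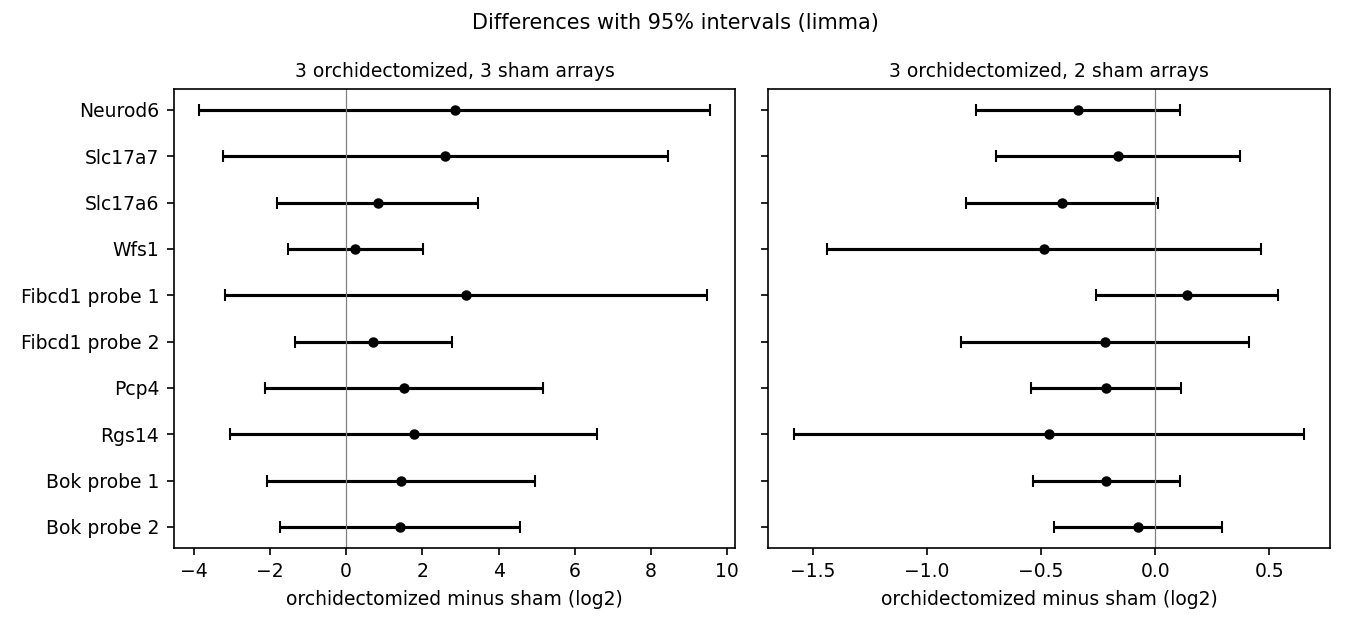
Difference of each probe, orchidectomized minus sham in log2 units with its 95% interval from limma, over 6 arrays (left) and over 5 arrays without sham 2 (right), each with its own x axis. Over 6 arrays all 10 differences are positive, from 0.24 to 3.15, and over 5 arrays 9 of 10 are negative, from -0.49 to 0.14, and every interval of both sets includes 0.

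With all 6 arrays every difference turned positive. The 10 probes were all higher in orchidectomized rats in the mean, from 0.24 for Wfs1 to 3.15 for the brighter Fibcd1 probe, with a median of 1.48 beside -0.02 over all tested probes. None was called, beside 0 of 24630 probes tested (0%), with 180 probes, 0.731%, at an unadjusted p under 0.05. The adjusted p from limma ran from 0.775 to 0.894. Neurod6, for example, averaged 2.40 ± 0.25 in orchidectomized rats and -0.45 ± 5.51 in sham rats (SD, n = 3 each), and its difference of 2.85 had an interval of -3.85 to 9.54. Sham 2 was the lowest array for all 10 probes. No member could thus have all orchidectomized arrays below all 3 sham arrays, as 4.74% of tested probes did. The direction over 6 arrays therefore rested on 1 array for 9 of the 10 probes, and for the brighter Fibcd1 probe its size fell to 0.14 without that array.

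On the array labelled sham 2 all 10 member probes lay more than 1 log2 unit below the median of the other 5 arrays, as did 24.3% of the 24162 probes well above background on those 5. More than 4 units below were 7 of 10 member probes and 6.11% of all. Neurod6 differed by -9.48 log2 units there, a level 714-fold lower. The brighter Fibcd1 probe differed by -9.10 units, 549-fold lower, and its other probe by -2.76 units, 6.79-fold lower. Slc17a7 was not well above background on sham 2, where the other 5 arrays were at least 84.8-fold brighter by the processed signal. These sizes depend on the background correction. Under normexp correction the difference over 6 arrays was 1.11 for Slc17a7, 2.06 for Neurod6 and 2.84 for the brighter Fibcd1 probe. In the main fit it was 2.60, 2.85 and 3.15.

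The remaining probes were lower on that array by unequal amounts. Rgs14 was 91.7-fold and Pcp4 33.4-fold lower, the 2 Bok probes 28.9-fold and 21.7-fold, and Slc17a6 10.8-fold. Wfs1 was the least reduced, by 3.85-fold, so that 26.0% of the median of the other 5 arrays was left, and 15% of all probes were as far down or further. For Neurod6 only 0.00414% of the 24162 probes, which is Neurod6 itself, were as far down by the processed signal. Neurod6 was dim on sham 2, at a processed signal of 16.4 before scaling, so this rank depends on the background correction. The rank under normexp correction was not worked out. No test is possible on a single array.

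**Figure D4:**
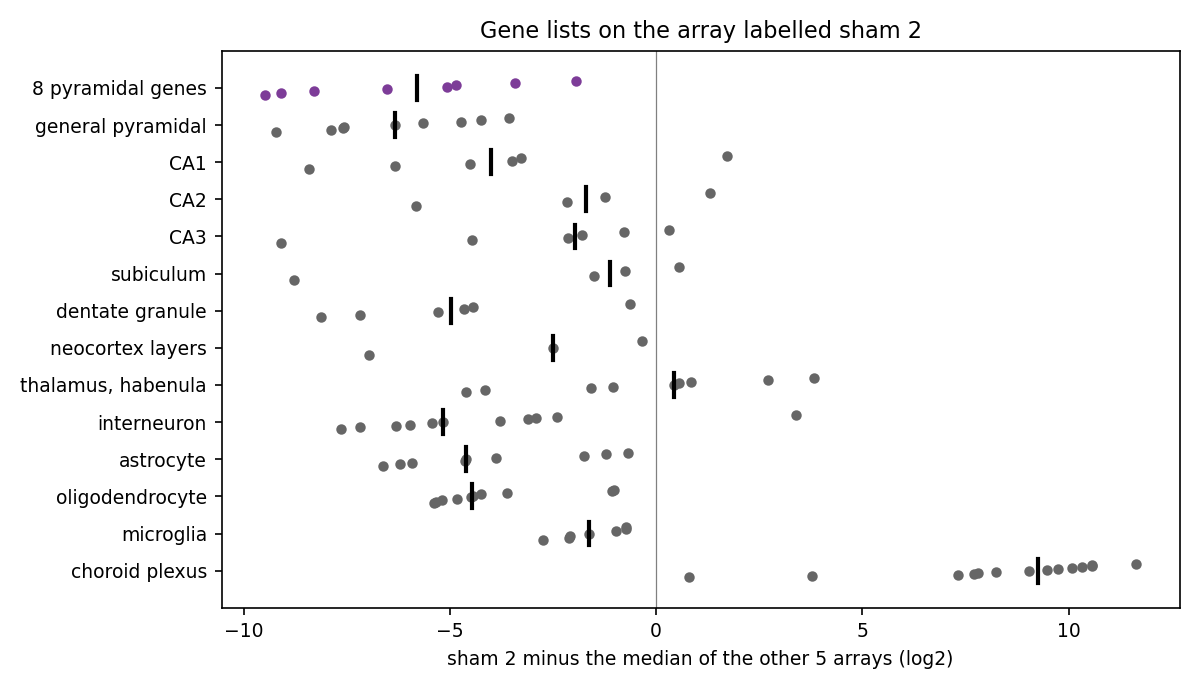
Value on the array labelled sham 2 minus the median of the other 5 arrays, in log2 units, for each gene of each marker list by its brightest probe, with the list's median as a bar. The 8 members run from -9.48 to -1.94 and the choroid plexus genes from 0.80 to 11.64, some of them saturated on sham 2, on either side of 0.

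The other markers of pyramidal cells were far down on the same array. All 9 general pyramidal genes were lower by more than 1 unit, with a median of -6.34, the same when the 1 gene not well above background there was set at its bound. Neurod2, a relative of Neurod6, was 2.53, 2.67 and 1.94 in orchidectomized 1 to 3 and 2.43, -5.06 and 2.64 in sham 1 to 3. Nrgn, the postsynaptic calmodulin-binding protein neurogranin, was 4.52, 4.32 and 3.94 in orchidectomized 1 to 3 and 4.57, -3.12 and 4.45 in sham 1 to 3. On sham 2 they differed by -7.59 and -7.57 units from the median of the other 5 arrays, over which Neurod2 spanned 0.74 and Nrgn 0.62. Camk2a, the kinase subunit of excitatory synapses, differed by -4.74 on sham 2, and Tbr1, a cortical transcription factor, was not well above background there.

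Field by field, CA1 markers had a median of -4.0 on sham 2 (-3.84 with the 1 gene not above background at its bound). CA2 markers had -1.70, CA3 markers -1.97, subiculum markers -1.12 and dentate granule cell markers -4.98. Each of these lists held 4 to 6 detected genes. A probe that is dim on the other 5 arrays can fall only a little. Cacng5 of the CA2 list and Tdo2 had medians of -5.16 and -6.15 on those arrays. The list medians therefore do not rank the fields. In CA1, Mpped1 differed by -8.42, Ccn3 by -4.50 and the POU factor Pou3f1 by -3.29. In CA3, Cpne4 differed by -9.09 and the kainate receptor subunit Grik4 by -4.47. Of granule cell genes, Pdyn, the opioid precursor prodynorphin, differed by -8.13, C1ql2 by -7.18 and Tdo2 by -0.64, and the homeobox gene Prox1 was not well above background on sham 2. Of subiculum genes, the neuropeptide precursor Nts was not well above background there, Tpbg differed by -1.50, Etv1 by -0.74 and Fn1, fibronectin, by 0.55. Not all members of these lists were lower: Amigo2, an adhesion protein of CA2, was higher on sham 2, at -1.11 against -2.64 to -2.22, and Dkk3, a secreted protein of the dickkopf family, was 0.30 above the median of the other 5. In CA1, Spink8, named after its values were seen, was 1.71 above it. Iyd, an iodide-recycling enzyme, had a probe below that mark on every array. Markers of interneurons (median -5.16), astrocytes (-4.60), oligodendrocytes (-4.47) and microglia (-1.62) were lower as well. The exception in the interneuron list, Reln, the secreted glycoprotein reelin, was 3.39 higher there and is named after its values were seen.

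Choroid plexus genes went the other way. Their mean level over 14 genes was -3.20, -3.62 and -4.21 in orchidectomized 1 to 3 and -3.86, 4.45 and -4.71 in sham 1 to 3, and on sham 2 all 14 were well above background and 13 were higher by more than 1 unit. Kl, the Klotho protein, was 10.58 units higher there and Kcnj13, a potassium channel saturated on sham 2, at least 10.09. Ttr, the thyroid hormone carrier transthyretin, read 0.80 higher, with saturation on sham 2 and on orchidectomized 1. The part of choroid plexus RNA in the levels of the members was not tested.

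Without sham 2 the neighbouring marker lists had no called gene either. General pyramidal markers were lower in 5 of 9 (median difference -0.01), CA1 in 3 of 6 (-0.03), CA2 in 4 of 4 (-0.22), CA3 in 3 of 6 (0.06), subiculum in 2 of 4 (0.07) and dentate granule cells in 5 of 6 (-0.14). The members, by their brightest probes, were lower in 7 of 8 genes, with a median of -0.28. The 4 genes of the CA2 list were Amigo2 (-0.11), Cacng5 (-0.29), the neurotrophin Ntf3 (-0.38) and the calcium-binding Necab2 (-0.14). Choroid plexus markers were higher in 12 of 13 (median 0.63), oligodendrocyte markers lower in 8 of 10 (-0.22) and astrocyte markers higher in 7 of 9 (0.16). Their part in the members' differences was not tested.

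Among the 5 arrays the members varied by very different amounts. From lowest to highest array, Bok spanned 0.34 and 0.33 units by its 2 probes and Pcp4 0.37, below the median of 0.46 over all 24162 probes. Neurod6 spanned 0.60, Slc17a7 0.67 and Slc17a6 0.73. Wfs1 and Rgs14 spanned 1.52 and 1.62, which only 2.89% and 2.40% of all probes matched or exceeded. In both of these orchidectomized 3 was lowest and sham 3 highest.

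**Figure D5:**
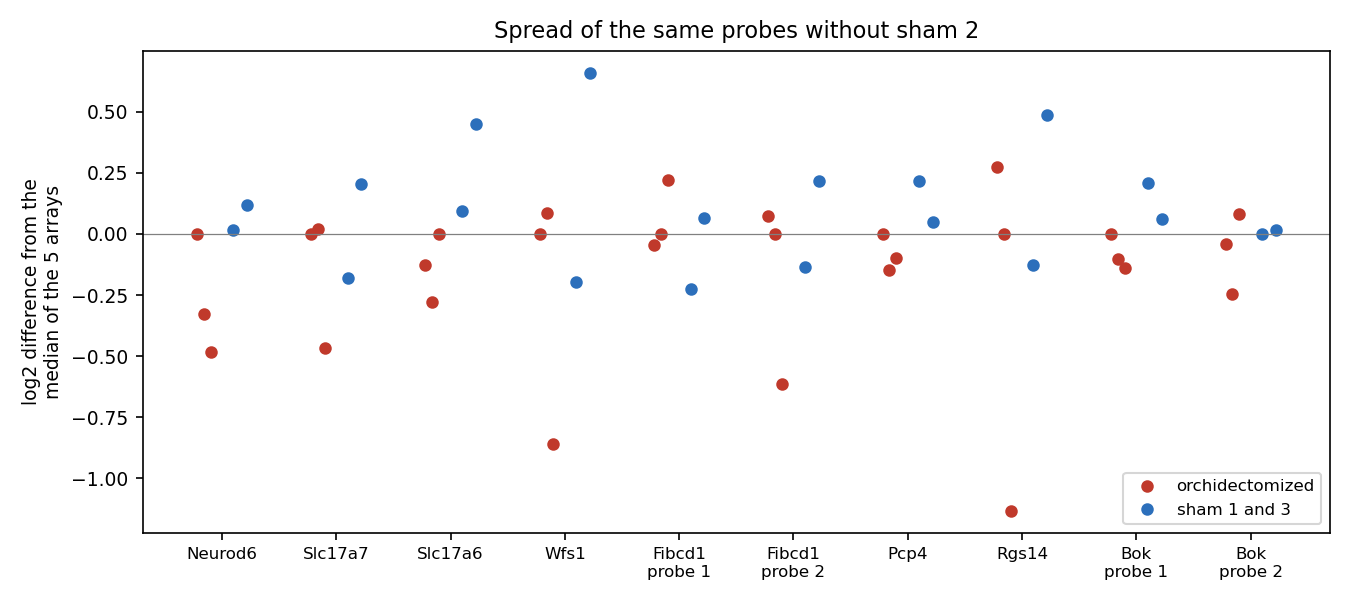
Deviation of each of the 10 probes from its median over 5 arrays, in log2 units, with points from left to right for orchidectomized 1 to 3 (red), sham 1 and sham 3 (blue). By the brightest probe of a gene, orchidectomized 3 is below the median for 6 of 8 genes and sham 3 above it for 8 of 8, and the points of Wfs1 and Rgs14 spread over 1.52 and 1.62 units.

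The same 2 arrays stood at the ends for several members. Orchidectomized 3 was lowest for Neurod6, Slc17a7, Wfs1, Rgs14, 1 Fibcd1 probe and 1 Bok probe, and its median deviation over the 8 genes was -0.30. Sham 3 was highest for Neurod6, Slc17a7, Slc17a6, Wfs1, Rgs14 and 1 Fibcd1 probe, with a median deviation of 0.16. The 75th percentile signal before scaling was 1783, 2146 and 1119 in orchidectomized 1 to 3 and 1765, 1849 and 2574 in sham 1 to 3, lowest on orchidectomized 3 and highest on sham 3. The part of array brightness in these spans was not tested. After quantile normalization Wfs1 and Rgs14 still spanned 1.54 and 1.65, and after normexp background correction 1.37 and 1.72, with orchidectomized 3 still lowest.

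Slide and scan day were shared unequally between the groups. Orchidectomized 3 and sham 1 were on the same slide, and there the difference was -0.50 for Neurod6, -0.29 for Slc17a7, -0.09 for Slc17a6, -0.66 for Wfs1, -0.31 for Pcp4 and -1.01 for Rgs14. For Fibcd1 it was 0.45 and -0.48 and for Bok -0.34 and 0.08, by their 2 probes each. All 3 orchidectomized arrays and sham 1 were scanned on the same day, and that day gave -0.29 for Neurod6, 0.03 for Slc17a7, -0.23 for Slc17a6, -0.06 for Wfs1, -0.30 for Pcp4, -0.16 for Rgs14, 0.29 and -0.04 for Fibcd1, and -0.29 and -0.07 for Bok. Slc17a7 thus changed sign within the day and within-day values for Wfs1 and Rgs14 were far smaller than the -0.49 and -0.47 over 5 arrays. Against sham 3 alone, scanned on the other day, they were -0.92 and -0.77. With slide as a block limma called 0 of 25208 probes and with scan day 10, none of them a member.

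The genes whose pattern over 6 arrays was most like a member's were found by the root-mean-square difference of levels centred on each probe's mean, over 12538 named genes. For Neurod6 they were Kcnj6, a potassium channel subunit, at 0.19, and the scaffold gene Cnksr2 at 0.20. For Slc17a7 they were the adhesion gene Nrcam at 0.09 and Mpped1 at 0.11. For Slc17a6 they were Colq, the collagen tail of acetylcholinesterase, at 0.10 and SPATA45 at 0.11. Wfs1 was nearest to Pcdhb3 (0.13) and Lingo3 (0.15), and Fibcd1 to Kcna4 (0.06) and the glutamate receptor gene Grm5 (0.07). Pcp4 was nearest to Csdc2 (0.09) and Kif26b (0.10), Rgs14 to the glutamate receptor subunit Grin1 (0.16) and Kcnip2 (0.22), and Bok to Insc (0.09) and Gpr135 (0.10). Sham 2 was the array on which each member departed furthest from the others, so it weighs most in these distances. Several of the values there are dim. Kcnj6 read -9.68, Grm5 -9.65 and Kcna4 -9.43 on sham 2, and Slc17a7, not well above background there, read -9.32. Over the 5 arrays without sham 2, the patterns hold only the small differences among those arrays. With 5 values per gene and 12538 genes searched, close matches are easy to find. Neurod6 was there nearest to Rgs8 (0.02) and Pola1 (0.04), Slc17a7 to Gtpbp2 (0.03) and Per2 (0.04), and Slc17a6 to Lsm14a and Fhl2 (0.04 each). Wfs1 was nearest to Or6c3b and Gsto2 (0.08 each) and Rgs14 to Dbh and Numbl (0.12 each). Fibcd1 was nearest to Cep19 and Msra (0.02 each), Pcp4 to Ift70a2 and Por (0.02 each) and Bok to Ccr1l1 (0.02) and Anks6 (0.03).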

How the data were processed

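Hippocampal RNA of 3 orchidectomized and 3 sham-operated Wistar rats was measured on 6 arrays with 1 channel; per the labels' protocols, 200 ng of RNA per animal was labelled with Cy3, and the replicates are called biological. Per the file headers, the scanned images went through Agilent Feature Extraction 10.5.1.1. Its processed signal, used here, is an intensity after background correction, and its flags for spots above background, saturated or outlying were used as set. The authors' deposited table holds log2 values equal to the log2 processed signal plus 1 constant per array. These constants lay between -0.32 and 0.72. Column medians in the orchidectomized samples, 1 to 3, equalled 8.02, 7.94 and 7.91, and in the sham samples, in the same order, 7.77, 7.62 and 8.04. Their scale is log2, 1-colour values have no direction, and the centring is unknown.

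Of 44254 spots, 1377 control spots and flagged outliers were left out, and a probe's spots were averaged as log2 values. Each array's 75th percentile was subtracted. Accessions, without versions, were matched to the gene table of GRCr8, which named 18004 probes and left 12363 unnamed. The genome build of the arrays differs, so coordinates are given for promoter windows only. A probe entered the test if some group had it well above background throughout. The test was limma 3.58.1 (lmFit, eBayes; R 4.3.3), two-sided, and p-values were adjusted by Benjamini and Hochberg's method over all probes tested. An at-least fold sets the mean of the other 5 arrays against the higher of the dim value and the lowest value well above background. The brightest probe stands for a gene in the lists. Members, marker lists and the array to leave out were chosen with earlier results of these data known. Named genes are the 8 members, the first 4 genes with a probe of each list, and the 2 genes nearest to each member in pattern; 2 genes of this rule are not reported here. Slides and scan days came from the file headers. Alternatives were other background corrections, scalings, filters, weights and blocks, the deposited values, and leaving out each array. Normexp used median spot signals. Over all probes the median difference became -0.101 (6 arrays) under median scaling, and under normexp 0.079 and 0.083 over 6 and 5 arrays. Only the fit over 5 arrays, without blocks or weights, was tested on simulated data. That data had normal noise and effects larger than the members' differences over those arrays.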

Additional observations from a re-analysis of the deposited data

How the results depend on the processing

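No member probe was called under any setting tried, in either comparison. Over 6 arrays the count of called probes moved to 1 with quantile normalization and 13 with array weights, where sham 2 had a weight of 0.028. Without sham 2 it moved to 2 with quantile normalization, 1 with median scaling, 18 with the deposited values and 10 with scan day as a block. Leaving out 1 further array gave 0 to 251 calls, 22 without sham 1 and 251 without sham 3, where the lone sham array is assumed to vary like the others. Over 6 arrays most members turned negative under some settings. With slide as a block, which rests on 1 pair of arrays, the differences were -0.50 for Neurod6, -0.29 for Slc17a7, -0.094 for Slc17a6, -0.66 for Wfs1, -0.31 for Pcp4, -1.01 for Rgs14 and -0.34 for Bok. With scan day as a block they were -0.29 for Neurod6, -0.23 for Slc17a6, -0.061 for Wfs1, -0.30 for Pcp4, -0.16 for Rgs14 and -0.29 for Bok. With array weights they were -0.16 for Neurod6, -0.31 for Slc17a6, -0.24 for Pcp4 and -0.22 for Bok. Sham 2 shared its slide with no other array and its scan day with no orchidectomized array. Either block therefore takes it out of the group difference. The block values were the same without sham 2, at -0.50 (slide) and -0.29 (scan day) for Neurod6. Leaving out each array gave -0.34 to 4.46 for Neurod6, -0.16 to 4.08 for Slc17a7, -0.41 to 1.53 for Slc17a6, -0.49 to 0.81 for Wfs1, 0.14 to 4.72 for Fibcd1, -0.21 to 2.43 for Pcp4, -0.47 to 3.04 for Rgs14 and -0.21 to 2.32 for Bok, the lowest in each case without sham 2. Without sham 2, Slc17a7 was 0.029 with scan day as a block, and Fibcd1 averaged over its probes was -0.040. Leaving out each further array gave -0.35 to 0.029 for Slc17a7, -0.0057 to 0.29 for Fibcd1, -0.47 to -0.23 for Neurod6, -0.59 to -0.23 for Slc17a6, -0.92 to -0.061 for Wfs1, -0.30 to -0.13 for Pcp4, -0.77 to -0.042 for Rgs14 and -0.29 to -0.14 for Bok. Wfs1 was smallest without sham 3 and Rgs14 without orchidectomized 3. Deviations of same-numbered arrays of the 2 groups from their group means had correlations of 0.027, -0.023 and -0.018. The sham mean included sham 2, which dominates the sham deviations, so these values cannot show whether the numbers pair the arrays. The replicate block left 0 calls in both comparisons and medians over the 8 genes of 1.64 and -0.28. With 2 sham arrays left, the unadjusted 95% intervals of the 10 probes reach a median of 0.43 log2 units to either side, and that of Rgs14 runs from -1.58 to 0.65.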

Other observations

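Genes of other cells measured beside the pyramidal neuron genes gave no call without the array labelled sham 2. Among interneuron genes 7 of 11 were lower in orchidectomized rats, with a median difference of -0.02. The 2 enzymes that make GABA, Gad1 and Gad2, differed by -0.02 and -0.33, the vesicular GABA transporter gene Slc32a1 by 0.11 and Pvalb, parvalbumin, by 0.03. Among oligodendrocyte genes the myelin genes Mog and Mag differed by -0.58 and -0.62 and Mbp by 0.35, the last saturated on 5 arrays. Astrocyte genes differed by 0.12 (Gfap), 0.16 (Aqp4), -0.08 (Aldh1l1) and 0.34 (Slc1a2), and microglial genes were higher in 5 of 7 (median 0.16), with 0.11 for Cx3cr1, 0.28 for Csf1r and 0.39 for Aif1 and a mean for P2ry12 that was the same to 2 decimals. Of choroid plexus genes, Ttr differed by 1.58, Kl by 0.92, Kcnj13 by 1.02 and Folr1 by 0.21. Neocortical layer genes were lower in 2 of 3 (median -0.01), and these were Fezf2 (-0.01) and Scnn1a (-0.09), while Rspo1 was higher (0.56). On the array labelled sham 2 they had a median of -2.51. Of the remaining thalamus and habenula genes, Lef1 differed by 0.19 and Gbx2 was well above background on 2 arrays and was not tested; that list was lower in 7 of 8 (median -0.19).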
